A study of Mus musculus with 12 samples.

Results

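The genes described here supply sugars to protein glycosylation and ATP to protein folding in the ER, and they are followed across 4 groups of mouse regulatory T cells (Treg). They were chosen by name, with earlier results of these data known. They are the hexosamine route enzymes Gfpt1, Gnpnat1, Pgm3 and Uap1, the GDP-mannose pyrophosphorylase subunits Gmppa and Gmppb, and the ER nucleotide carrier Slc35b1. All 7 symbols were found among the 23337 in the deposited count files, and all 7 passed the filter on low counts, which kept 12038 genes.

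The mice were C57BL/6 animals of 8 weeks, and the study compared Treg with and without a Treg-directed deletion of Hrd1. Hrd1, gene symbol Syvn1, is a ubiquitin ligase of the ER membrane that marks misfolded ER proteins for degradation. Libraries labelled KO carried the genotype Hrd1 flox/flox, FoxP3-cre+-GFP, and libraries labelled WT the genotype Hrd1 +/flox, FoxP3-cre+-GFP. Both labels therefore share the Foxp3-driven Cre and at least 1 floxed Hrd1 allele, and no group with neither is analysed here. Spleen and lymph nodes were the source. For induced Treg (iTreg), CD4 T cells were kept 5 days with IL-2 plus TGF-beta and the GFP-positive ones taken, while natural Treg (nTreg) were sorted directly by CD4 and GFP. Each of the 4 groups, iTreg KO, iTreg WT, nTreg KO and nTreg WT, had 3 libraries. Whether each library had its own mouse is not stated in the labels, and the p-values cover only library-to-library spread, which may be partly technical. Xist, a transcript of female cells described below, was high only in nTreg WT replicate 3, nTreg KO replicate 3 and iTreg WT replicate 2. The libraries within those groups therefore did not all come from the same animals.

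Glucosamine-6-phosphate is made from fructose-6-phosphate by Gfpt1, the rate-limiting enzyme of the hexosamine route. Gnpnat1 then acetylates it, Pgm3 moves its phosphate, and Uap1 joins it to UTP, which gives UDP-GlcNAc, the donor for the first sugars of every N-linked glycan and for O-GlcNAc. Gmppb makes GDP-mannose, and Gmppa is a catalytically inactive partner that restrains it when GDP-mannose is plentiful. Slc35b1 exchanges ADP for ATP across the ER membrane and so supplies ER chaperones such as BiP (Hspa5), which spend ATP as they fold proteins. In secretory and immune cells several of these genes are known targets of the unfolded protein response, in particular of its transcription factor XBP1.

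Promoter windows of RefSeq (GRCm38.p6), 300 bases around the annotated start site, were available for Gfpt1, Pgm3, Uap1, Gmppa and Slc35b1. The windows of Gfpt1, Pgm3 and Slc35b1 are shown because these genes were all called higher in KO-labelled nTreg yet differ in the short letters known from unfolded protein response elements. Capitals mark CCACG (the last letters of the ER stress element) and ACGTG (the core of the UPR element bound by XBP1 and ATF6). Both were read on either strand. The Gfpt1 window is chr6:87042596-87042895 on the plus strand, the Pgm3 window chr9:86571793-86572092 on the minus strand and the Slc35b1 window chr11:95384606-95384905 on the plus strand, each printed in the direction of its gene.
Gfpt1: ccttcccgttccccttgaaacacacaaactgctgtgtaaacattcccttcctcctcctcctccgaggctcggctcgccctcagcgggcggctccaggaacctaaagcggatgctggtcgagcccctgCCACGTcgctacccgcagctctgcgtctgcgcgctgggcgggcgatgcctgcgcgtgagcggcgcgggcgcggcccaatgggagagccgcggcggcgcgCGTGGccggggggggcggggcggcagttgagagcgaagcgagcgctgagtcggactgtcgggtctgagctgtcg
Pgm3: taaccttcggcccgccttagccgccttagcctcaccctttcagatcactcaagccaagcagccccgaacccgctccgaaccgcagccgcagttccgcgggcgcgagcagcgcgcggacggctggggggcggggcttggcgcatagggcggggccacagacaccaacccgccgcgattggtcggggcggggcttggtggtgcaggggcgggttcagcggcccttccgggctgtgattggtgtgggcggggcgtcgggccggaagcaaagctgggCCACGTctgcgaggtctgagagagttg
Slc35b1: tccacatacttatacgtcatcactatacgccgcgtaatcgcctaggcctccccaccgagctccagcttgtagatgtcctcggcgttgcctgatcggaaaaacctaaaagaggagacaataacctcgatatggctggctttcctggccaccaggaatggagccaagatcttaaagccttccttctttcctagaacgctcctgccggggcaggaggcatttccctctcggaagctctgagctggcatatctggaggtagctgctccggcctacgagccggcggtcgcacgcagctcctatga
In Gfpt1, CCACG began 123 bases before the start site, overlapping an ACGTG on the other strand, and a further CCACG on the other strand began 24 bases before it. In Pgm3 the same overlapping pair lay after the start site, with CCACG beginning at base 24. No copy of either was found in the Slc35b1 window. That window is set on a start site 164 bases downstream of the outermost GENCODE start of Slc35b1 and so holds only 86 bases before it, while the Gfpt1 and Pgm3 windows are set on their GENCODE starts. CCACG was present in 3 of the 5 windows matched (Gfpt1, Pgm3, Uap1), against 35.5% of 27025 genes in the same table, and ACGTG in 4 of 5 (Gfpt1, Pgm3, Uap1 and Gmppa), against 21.8%. The full ER stress element, CCAAT and CCACG with 9 bases between them, was in 0 of 5 windows against 0.137% of genes, TGACGTGG in 0 of 5 against 0.714%, and the C/EBP-ATF element TGATGNAAT in 0 of 5 against 1.08%. The shares cover all 27025 genes, whether or not they are expressed in Treg, and were not matched for base composition. They are therefore no test of enrichment. These counts describe letters in a fixed window and no binding was measured.

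Library totals were between 6763458 and 15462894 counts. Levels are given in CPM (counts scaled to a common library size, after TMM normalisation), and all tests were edgeR quasi-likelihood tests over the 12 libraries with Benjamini-Hochberg adjustment over all 12038 genes. A change is called at an adjusted p below 0.05. Syvn1, the targeted gene, had 146, 137 and 129.7 CPM in nTreg KO and 73.7, 87.2 and 75.5 CPM in nTreg WT (log2 fold change 0.80, SE 0.17, adjusted p = 0.023). In iTreg it had 54.6, 73.1 and 63.1 CPM under the KO label and 61.6, 72.2 and 101 CPM under the WT label (−0.30, SE 0.17, adjusted p = 0.75). A count per gene includes reads from exons outside the floxed part, so it does not check the deletion, and KO and WT below are the labels of the libraries. Foxp3, the defining Treg transcription factor, was read in every library (191 to 668 CPM). Xist, which coats the silenced X chromosome of female cells, exceeded 10 CPM in 3 libraries (iTreg WT replicate 2, nTreg KO replicate 3 and nTreg WT replicate 3). Myeloid markers summed to 309 CPM in nTreg KO replicate 2 and 144 CPM in nTreg WT replicate 2, and to at most 62.5 CPM in the other 10 libraries. Results are therefore also given without those libraries.

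In nTreg, 6 of the 7 genes were called higher under the KO label than under the WT label; Gnpnat1 did not pass. Across all genes tested, 2.18% were called higher in this comparison. Because the 7 genes were chosen with earlier results of these data known, the shares over all genes describe the set and do not test it. The 3 KO libraries lay above the 3 WT libraries for 7 of 7 genes, a separation that 15.7% of all genes showed in this direction. The fold changes were between 1.23 for Gnpnat1 and 2.84 for Slc35b1, with a median log2 fold change of 0.89 against 0.01 over all genes. Summed over the 7 genes, nTreg KO libraries held 514, 577 and 553 CPM and nTreg WT libraries 282, 299 and 296 CPM. In iTreg, 1 of 7 genes was called higher, Slc35b1, where 0.166% of all genes were called higher and 0.0166% lower. The KO and WT libraries did not overlap for 4 of 7 genes in iTreg, against 4.68% of all genes, and the median log2 fold change was 0.46 against −0.01 over all genes. The summed level was 463, 600 and 398 CPM in iTreg KO and 350.4, 421 and 314 CPM in iTreg WT, so that 1 WT library lay above 1 KO library.

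**Figure D1:**
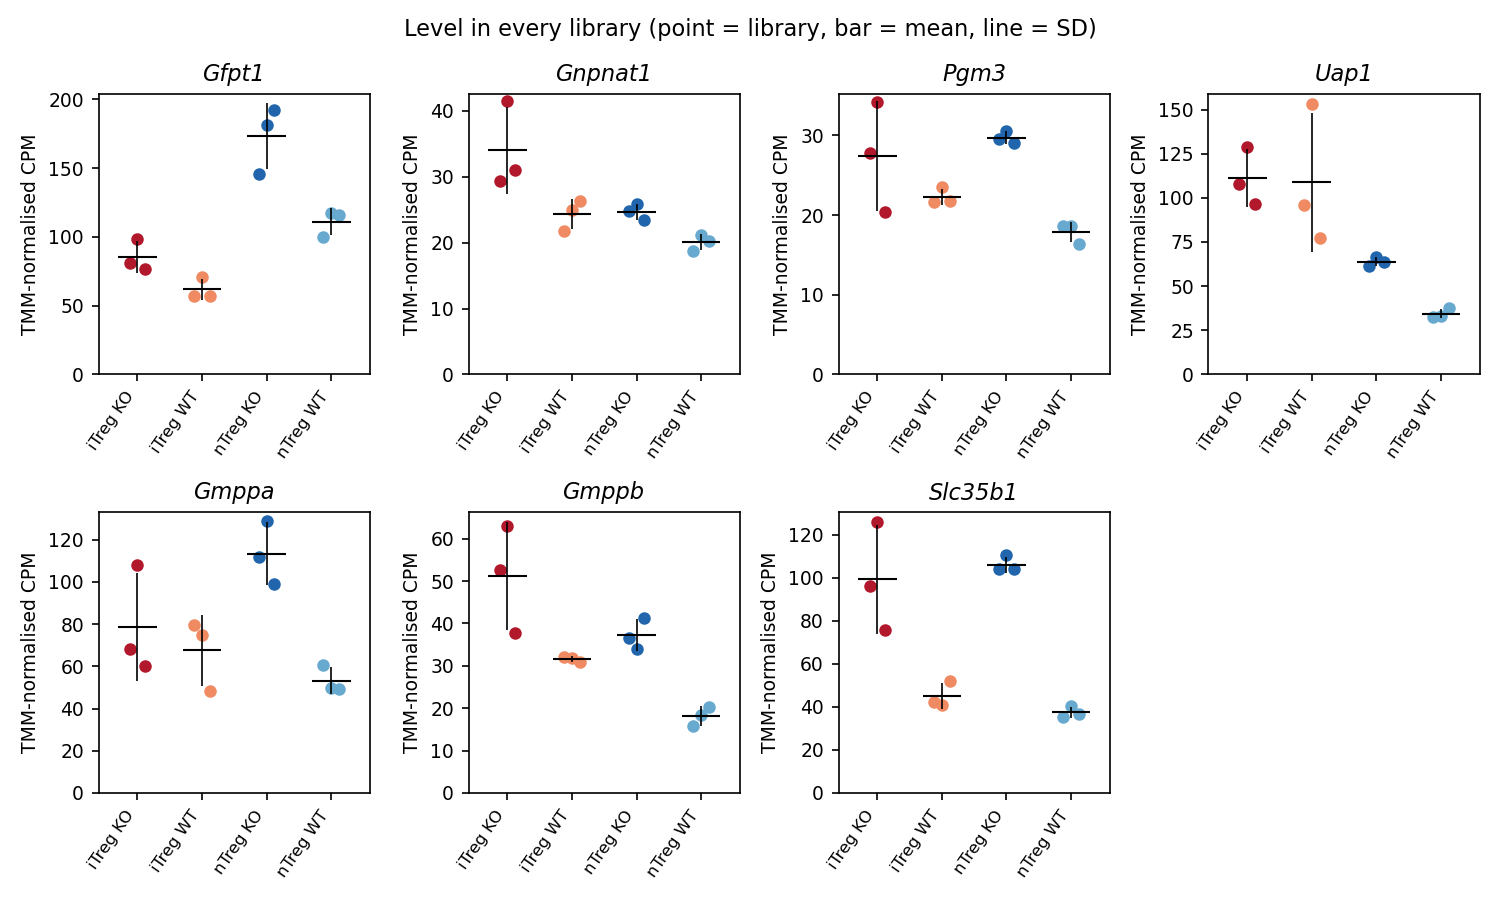
Level of each of the 7 genes in every library, in CPM, with a panel per gene. Points are libraries and bars are group means with SD (n = 3). The nTreg KO points lie above the nTreg WT points in all 7 panels, while in iTreg the points of the 2 labels are apart for Gfpt1, Gnpnat1, Gmppb and Slc35b1.

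Slc35b1, the ER ATP carrier, changed most of the 7 in both kinds of Treg. Its level was 96.0, 126 and 75.7 CPM in iTreg KO and 42.1, 41.1 and 51.9 CPM in iTreg WT. In nTreg it was 104, 110.4 and 104 CPM under the KO label and 35.4, 40.2 and 36.6 CPM under the WT label. The lowest KO library of either kind exceeded the highest WT library of either kind. The log2 fold change was 1.14 in iTreg (SE 0.16, 95% confidence interval 0.79 to 1.49, adjusted p = 0.018) and 1.50 in nTreg (SE 0.16, 1.15 to 1.86, adjusted p = 0.00025). By library number, the log2 ratio of KO to WT was 1.19, 1.61 and 0.55 in iTreg and 1.55, 1.46 and 1.51 in nTreg, so the 3 nTreg pairs were close to each other and the iTreg pairs were not. The nTreg call held in 18 of 18 alternative fits, which used other scalings, filters and tools, paired the libraries or left out each library in turn. In iTreg it was lost without WT replicate 1, WT replicate 2 or KO replicate 1 (adjusted p = 0.131, 0.129 and 0.0604), and without the 3 libraries that carry Xist, where iTreg WT has 2 libraries (log2 fold change 1.08, adjusted p = 0.635). The 2 cell types did not differ detectably in this change: the iTreg minus the nTreg effect was −0.36 (SE 0.23, adjusted p = 0.85).

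Hspa5, the ATP-driven chaperone that Slc35b1 supplies, was also called higher in both cell types, by a larger fold (log2 fold change 1.59 in iTreg and 1.98 in nTreg). The gene is no member of the set and is given only as the consumer of the imported ATP.

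Gfpt1, which commits fructose-6-phosphate to the route, had 80.7, 98.2 and 76.4 CPM in iTreg KO and 57.2, 70.9 and 57.2 CPM in iTreg WT. In nTreg the values were 146, 181 and 192 CPM for KO and 99.7, 117 and 116 CPM for WT. KO and WT libraries were apart in both cell types. The log2 fold change was 0.64 in nTreg (SE 0.14, 95% confidence interval 0.34 to 0.94, adjusted p = 0.029), which passed, and 0.46 in iTreg (SE 0.14, 0.16 to 0.76, adjusted p = 0.39), which did not. Paired by library number, the iTreg ratios were 0.50, 0.47 and 0.42 on the log2 scale, and a fit that paired libraries by their number called Gfpt1 in iTreg (0.46, adjusted p = 0.021).

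Gnpnat1, the acetyltransferase of the second step, had the smallest difference of the 7 in nTreg. It had 29.4, 41.5 and 31.1 CPM in iTreg KO and 21.8, 24.9 and 26.3 CPM in iTreg WT. In nTreg it had 24.8, 25.8 and 23.4 CPM under the KO label and 18.8, 21.2 and 20.2 CPM under the WT label. KO libraries lay above WT libraries in both cell types, but neither difference passed (log2 fold change 0.48, SE 0.14, adjusted p = 0.38 in iTreg, and 0.30, SE 0.15, adjusted p = 0.41 in nTreg). None of 18 alternative fits called it in either cell type.

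Pgm3, the phosphoacetylglucosamine mutase of the third step, had 27.8, 34.2 and 20.4 CPM in iTreg KO and 21.7, 23.5 and 21.8 CPM in iTreg WT. In nTreg it had 29.5, 30.6 and 29.0 CPM for KO and 18.6, 18.7 and 16.4 CPM for WT. The iTreg labels overlapped, since KO replicate 3 was the lowest of the 6, and the nTreg labels were far apart. The nTreg change was 0.73 on the log2 scale (SE 0.17, 95% confidence interval 0.37 to 1.10, adjusted p = 0.036), and the iTreg value 0.30 (SE 0.16, −0.06 to 0.65, adjusted p = 0.74).

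Uap1, which ends the route by making UDP-GlcNAc, was the gene of the 7 that differed most between WT iTreg and WT nTreg. Its level was 108, 129 and 96.5 CPM in iTreg KO and 96.1, 153 and 77.5 CPM in iTreg WT. In nTreg it was 61.5, 66.4 and 63.9 CPM under the KO label and 32.8, 33.0 and 37.5 CPM under the WT label. The highest iTreg library of all was a WT one, replicate 2, which is also the iTreg library that carries Xist. In nTreg the change was 0.89 (SE 0.21, 95% confidence interval 0.43 to 1.35, adjusted p = 0.046), while in iTreg the value was 0.03 (SE 0.20, −0.41 to 0.47, adjusted p = 0.99), or 0.36 without WT replicate 2. The difference of the 2 effects, iTreg minus nTreg, was −0.86 (SE 0.29, −1.49 to −0.23, adjusted p = 0.42). With the paired fit (the replicate block, 1.46% of all genes called lower) it was −0.82 and passed (adjusted p = 0.035), so the call depends on the pairing.

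**Figure D2:**
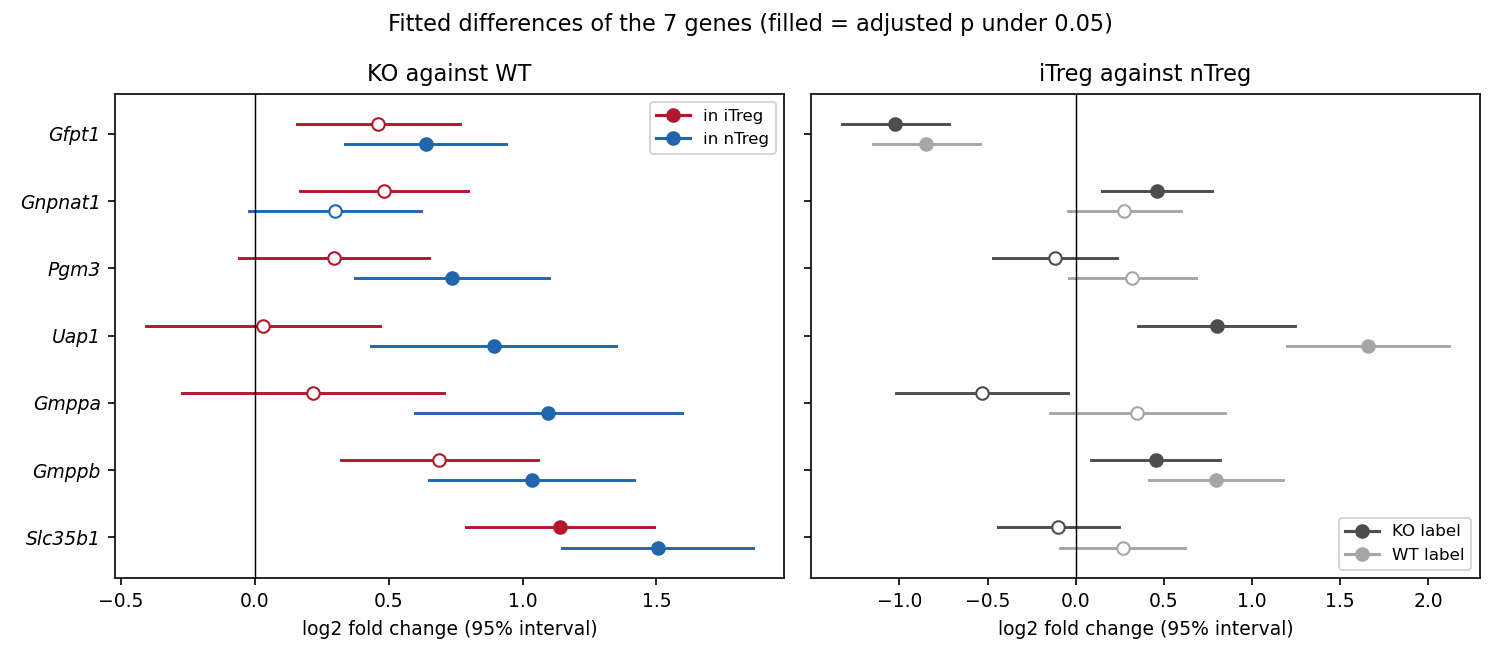
Log2 fold changes of the 7 genes with 95% confidence intervals from the edgeR fit, KO over WT on the left and iTreg over nTreg on the right; filled points passed the test and the vertical line is 0. On the left the nTreg intervals lie above 0 for 6 of 7 genes, and the iTreg estimates are below the nTreg ones for all except Gnpnat1.

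Gmppb and Gmppa form the pyrophosphorylase of the GDP-mannose branch. Gmppb, the catalytic subunit, had 52.6, 63.1 and 37.7 CPM in iTreg KO and 32.2, 31.9 and 30.9 CPM in iTreg WT. In nTreg it had 36.6, 34.0 and 41.3 CPM for KO and 15.8, 18.3 and 20.4 CPM for WT. Every KO library was above every WT library of the same cell type. The log2 fold change was 1.03 in nTreg (SE 0.18, 95% confidence interval 0.65 to 1.42, adjusted p = 0.0061) and held in 18 of 18 alternative fits. In iTreg it was 0.69 (SE 0.17, 0.32 to 1.06, adjusted p = 0.23), which did not pass, while the replicate block gave 0.66 and passed (adjusted p = 0.0486). With Slc35b1 and Gfpt1 that made 3 of 7 called higher in iTreg under the block, where 0.673% of all genes were, and in nTreg the block left 6 of 7, where 5.36% were.

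Gmppa, the inactive regulatory subunit, had 68.2, 108 and 60.0 CPM in iTreg KO and 79.4, 74.9 and 48.4 CPM in iTreg WT. In nTreg it had 112, 129 and 99.2 CPM under the KO label and 60.6, 49.7 and 49.2 CPM under the WT label. The iTreg labels overlapped and the nTreg labels were apart. The nTreg change was 1.10 (SE 0.23, 95% confidence interval 0.60 to 1.60, adjusted p = 0.024), and the iTreg value 0.22 (SE 0.23, −0.27 to 0.71, adjusted p = 0.89). The iTreg minus the nTreg effect was −0.88 (SE 0.32, −1.58 to −0.18, adjusted p = 0.49). None of the 7 genes passed the edgeR test of that difference, while DESeq2 called 0 and voom 1. The edgeR test called 0.274% of all genes with a lower and 0.0166% with a higher effect in iTreg. At an unadjusted p under 0.05 in edgeR there were 2 of 7, both negative. The share of all genes at that unadjusted threshold was not taken, so this count has no background. Of the 7 differences, 6 were negative, with a median of −0.37 against −0.03 over all genes.

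The ratio of Gmppa to Gmppb, each per kilobase of exon, was 1.78 ± 0.248 in iTreg KO and 2.47 ± 0.567 in iTreg WT, and 3.59 ± 0.81 in nTreg KO and 3.48 ± 0.867 in nTreg WT (SD, n = 3 each). The labels overlapped in this ratio in both cell types. Of the 2785 exonic bases of Gmppb, 937 are shared with Rnf123 on the other strand. Whether reads from them were counted is not known, so the size of the ratio is uncertain.

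Replicate 2 of iTreg KO was the highest KO library of iTreg for 7 of 7 genes, and its summed Treg markers were the lowest of all libraries (3797 CPM, with the other 11 between 4338 and 5087). Most of that sum was Il2ra (2445 CPM), which was lowest in this library among the iTreg libraries, as was Foxp3 (191 CPM). The other markers did not share this: Ctla4 (356 CPM), Ikzf2 (34.5) and Cd3e (327) were highest there among the iTreg KO libraries, and Cd4 (444) was intermediate. Without replicate 2 of iTreg KO, the log2 fold change in iTreg was 0.93 for Slc35b1, still called (adjusted p = 0.019), 0.51 for Gmppb, 0.35 for Gfpt1 and 0.32 for Gnpnat1. Without it the values for Uap1 and Gmppa were −0.09 and −0.08. Its part in the iTreg values beyond these numbers was not tested.

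The nTreg count rested on few libraries. It was 2 of 7 (Slc35b1 and Gmppb) without any one of the 3 WT libraries or KO replicate 2, and 3 of 7 without KO replicate 1 or 3. The iTreg libraries share the estimate of spread, and without KO replicate 1 or WT replicate 1 of iTreg, Pgm3 and Uap1 did not pass either, nor Uap1 without iTreg KO replicate 3 or Pgm3 without iTreg WT replicate 2. Without the 3 libraries that carry Xist, and likewise without both nTreg libraries numbered 2, Slc35b1 alone was called. The log2 fold changes themselves moved little: without the Xist libraries they were 0.59 for Gfpt1, 0.69 for Pgm3, 0.96 for Uap1, 1.13 for Gmppa and 1.05 for Gmppb. Over all genes the higher calls in nTreg fell too, from 263 with all libraries to between 155 and 197 without 1 nTreg library. They were 100 without both nTreg libraries numbered 2 and 70 without the Xist libraries. Markers of other cells were read as well. In nTreg, B cell markers summed to 16.5 to 17.2 CPM in nTreg KO and 28.1 to 33.7 CPM in nTreg WT, with 1 of 2 tested called lower (Cd22). Of the 4 plasma cell markers in the files, whose sum was 15.9 to 35.0 CPM in nTreg KO and 12.5 to 44.8 CPM in nTreg WT, 3 were tested and 0 called. Myeloid markers summed to 35.6 to 309 CPM in nTreg KO and 39.4 to 144 CPM in nTreg WT, with 0 of 8 called. CD8 and NK cell markers summed to 17.3 to 23.0 CPM in nTreg KO and 17.6 to 20.7 CPM in nTreg WT, and 0 were called. Their part in the 7 genes' values was not tested. In bulk RNA of this kind, fewer cells of a type and less RNA per cell cannot be told apart.

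Between the cell types the 7 genes did not move as a group. In KO, iTreg had more Uap1 (log2 difference iTreg minus nTreg 0.80, SE 0.20, adjusted p = 0.0047), Gnpnat1 (0.46, SE 0.14, adjusted p = 0.015) and Gmppb (0.45, SE 0.17, adjusted p = 0.033), and less Gfpt1 (−1.02, SE 0.14, adjusted p = 5.6e-05). In this comparison 32.1% of all genes were called higher and 29.8% lower. The Gmppb libraries of the 2 cell types overlapped there, and its call was lost without replicate 1 or 2 of nTreg KO or of iTreg KO, while that of Gnpnat1 was lost without nTreg KO replicate 3 or iTreg KO replicate 2. Gmppa, at −0.53 and an adjusted p of 0.057, was called lower in KO iTreg with DESeq2, with voom, and without iTreg WT replicate 3 or iTreg KO replicate 2. It was also called lower with the replicate block (30.9% of all genes were called lower with it). In this comparison the block joins libraries of the same number across the cell types, a pairing that the data did not show. In WT, Gfpt1 was again lower in iTreg (−0.85, SE 0.14, adjusted p = 0.00022), and Uap1 (1.66, SE 0.21, adjusted p = 2.8e-05) and Gmppb (0.80, SE 0.18, adjusted p = 0.0016) were higher. There 34.8% of genes were called higher and 30.4% lower, so 2 higher and 1 lower of 7 is no more than the background. Gnpnat1, Pgm3 and Slc35b1 were higher in every iTreg WT library than in any nTreg WT library, as were 37.4% of all genes, but did not pass (0.28, 0.32 and 0.27; adjusted p = 0.12, 0.11 and 0.17). The KO and WT comparisons share no library, but they share the estimate of spread. KO and WT libraries of the same number were also correlated within a cell type, so the 2 comparisons are not independent. The Gfpt1 and Uap1 calls held in 18 of 18 alternative fits in both comparisons. Markers of other cells differed between the same groups. Myeloid markers summed to 4.21 to 6.34 CPM in iTreg KO and 35.6 to 309 CPM in nTreg KO, with 8 of 8 called lower in iTreg, and to 4.61 to 6.1 CPM in iTreg WT and 39.4 to 144 CPM in nTreg WT, with 6 of 8 called lower. B cell markers summed to 0.528 to 1.51 CPM in iTreg KO and 16.5 to 17.2 CPM in nTreg KO, and to 0.994 to 3.01 CPM in iTreg WT and 28.1 to 33.7 CPM in nTreg WT, with 2 of 2 tested called lower in both labels. Of the 6 Treg markers, 5 were called lower and 1 higher in iTreg in both labels, with sums of 3797 to 4928 CPM in iTreg KO and 4338 to 4572 CPM in nTreg KO, and of 4367 to 5087 CPM in iTreg WT and 4445 to 4891 CPM in nTreg WT. Plasma cell markers had 1 of 3 tested called higher and 1 lower in both labels, with sums of 9.61 to 27.2 CPM in iTreg KO and 13.3 to 24.9 CPM in iTreg WT, and CD8 and NK cell markers had 1 of 4 called higher and 2 lower in both, with sums of 8.5 to 14.9 CPM in iTreg KO and 14.8 to 26.8 CPM in iTreg WT. At 0 in every iTreg library were Pax5, Tnfrsf17, Lyz2, Ncr1 and Klra8. In nTreg, Lyz2 had 1.42 to 14.0 CPM. Pax5, Tnfrsf17 and Ncr1 reached at most 0.372, 0.148 and 0.886 CPM there, and Klra8 was at 0 in every nTreg library too. The part of these markers in the differences of the 7 genes was not tested.

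Gfpt1 and Uap1, the first and last enzymes of the same route, thus lay on opposite sides. Their ratio per kilobase, Gfpt1 over Uap1, was 0.296, 0.303 and 0.315 in iTreg KO and 0.237, 0.184 and 0.294 in iTreg WT. In nTreg it was 0.942, 1.08 and 1.20 for KO and 1.21, 1.42 and 1.23 for WT. The libraries of the 2 cell types did not overlap. Gfpt2, the second glucosamine-phosphate synthase, was scarce: 8.0 ± 4.07 CPM in iTreg KO, 10.3 ± 4.27 in iTreg WT, 2.38 ± 0.574 in nTreg KO and 2.22 ± 0.664 in nTreg WT (SD, n = 3 each). It was higher in iTreg than in nTreg in KO (1.74, SE 0.45, adjusted p = 0.0053) and in WT (2.20, SE 0.46, adjusted p = 0.0013). Per kilobase it stayed at 1.43 CPM in iTreg KO and 1.85 in iTreg WT, below Gfpt1 at 8.45 and 6.13 in the same groups.

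Per kilobase of merged exon, the carrier, the Gmppa subunit and, in iTreg, Uap1 had the highest levels of the 7 genes. The lengths include exonic bases shared with a gene on the other strand: 3878 of 4735 in Gnpnat1, 1270 of 4487 in Pgm3 and 937 of 2785 in Gmppb. Whether reads from shared bases were counted is not known. Levels per kilobase of Gnpnat1, Pgm3 and Gmppb may therefore be too low, and their places in the orders below are uncertain. In iTreg KO the means were 44.6 ± 11.4 CPM per kilobase for Slc35b1, 32.8 ± 10.7 for Gmppa, 27.8 ± 4.12 for Uap1 and 18.4 ± 4.57 for Gmppb. Gfpt1 (8.45 ± 1.15), Gnpnat1 (7.18 ± 1.38) and Pgm3 (6.12 ± 1.54) followed. In iTreg WT the means of Gmppa (28.2 ± 6.98) and Uap1 (27.2 ± 9.86) were above that of Slc35b1 (20.3 ± 2.67). In replicate 3, though, Slc35b1 (23.3) lay above Gmppa (20.2) and Uap1 (19.3), so that order was not resolved. Gmppb (11.4 ± 0.243) came next, with Gfpt1 (6.13 ± 0.783), Gnpnat1 (5.14 ± 0.492) and Pgm3 (4.97 ± 0.229) last. In both iTreg groups each of the last 3 differed from its neighbour by less than the sum of their SDs, and so did Gmppa and Uap1.

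In nTreg KO, Slc35b1 (47.7 ± 1.72) and Gmppa (47.3 ± 6.26) were level, well above Gfpt1 (17.2 ± 2.42), Uap1 (15.9 ± 0.608) and Gmppb (13.4 ± 1.33), with Pgm3 (6.62 ± 0.174) and Gnpnat1 (5.21 ± 0.25) last. In nTreg WT the order was Gmppa (22.2 ± 2.68), Slc35b1 (16.8 ± 1.12), Gfpt1 (11.0 ± 0.983), Uap1 (8.58 ± 0.665) and Gmppb (6.52 ± 0.822), then Gnpnat1 (4.24 ± 0.262) and Pgm3 (3.99 ± 0.292), which did not differ beyond their spread. All values with ± in these 2 paragraphs are mean ± SD with n = 3.

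**Figure D3:**
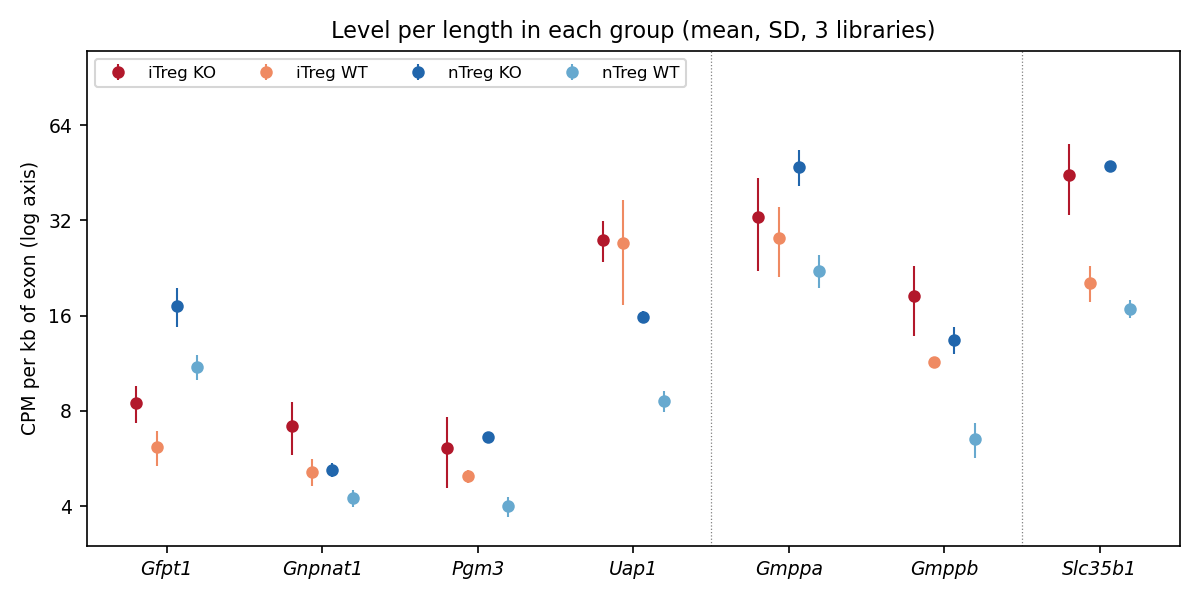
Mean level of each gene in CPM per kilobase of merged exon, by group, with SD (n = 3), on a log axis. Slc35b1 and Gmppa stand highest in nTreg KO at 47.7 and 47.3, and Pgm3 and Gnpnat1 are among the lowest in every group. Exon lengths of Gnpnat1, Pgm3 and Gmppb include bases shared with genes on the other strand, so their levels may be too low.

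Few other genes of the same pathways were called between KO and WT. The 4 lists of neighbours hold 12 genes that feed or use UDP-GlcNAc, 13 around GDP-mannose, 13 for other nucleotide sugars, and 15 nucleotide sugar carriers and phosphatases. Of these 53 genes 51 were tested. In nTreg 3 of the 51 were called higher under the KO label and 0 lower (2.18% and 0.341% of all genes), and their median log2 fold change was 0.03. With the replicate block the nTreg counts were 6 higher and 0 lower (5.36% and 3.64% of all genes), and with voom 5 and 1 (5.29% and 3.61% of all genes). In iTreg 0 of 51 were called in either direction by edgeR, DESeq2, voom or the block, with a median of 0.05. At an unadjusted p under 0.05 in edgeR, 6 were higher and 1 lower. The share of all genes at that threshold was not taken, so these counts have no background to be read against.

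Dpagt1 and Gmds, called with Alg2, take up the products of the enzymes above. Dpagt1, which places the first GlcNAc-phosphate on dolichol, had 57.8, 58.5 and 47.3 CPM in iTreg KO and 51.8, 51.7 and 53.0 CPM in iTreg WT, with 48.3, 49.0 and 47.2 CPM in nTreg KO and 20.8, 25.1 and 20.9 CPM in nTreg WT. The nTreg WT libraries stood apart below the other 9. Its log2 fold change was 0.06 in iTreg (SE 0.11, adjusted p = 0.94) and 1.11 in nTreg (SE 0.11, adjusted p = 0.00016). Gmds, which turns GDP-mannose towards GDP-fucose, had 26.3, 33.2 and 23.9 CPM in iTreg KO and 16.4, 21.2 and 20.3 CPM in iTreg WT, with 21.8, 19.7 and 16.0 CPM in nTreg KO and 10.2, 7.64 and 8.56 CPM in nTreg WT. KO and WT libraries were apart in both cell types, and the change passed in nTreg (1.12, SE 0.19, adjusted p = 0.0055) but not in iTreg (0.53, SE 0.18, adjusted p = 0.47). Alg2, a mannosyltransferase of the lipid-linked oligosaccharide, averaged 57.7 ± 12.1 CPM in nTreg KO and 32.5 ± 5.56 CPM in nTreg WT (0.83, SE 0.17, adjusted p = 0.021). Its call was lost without replicate 2 or 3 of nTreg KO or replicate 1 or 3 of nTreg WT (adjusted p = 0.0791 to 0.112).

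**Figure D4:**
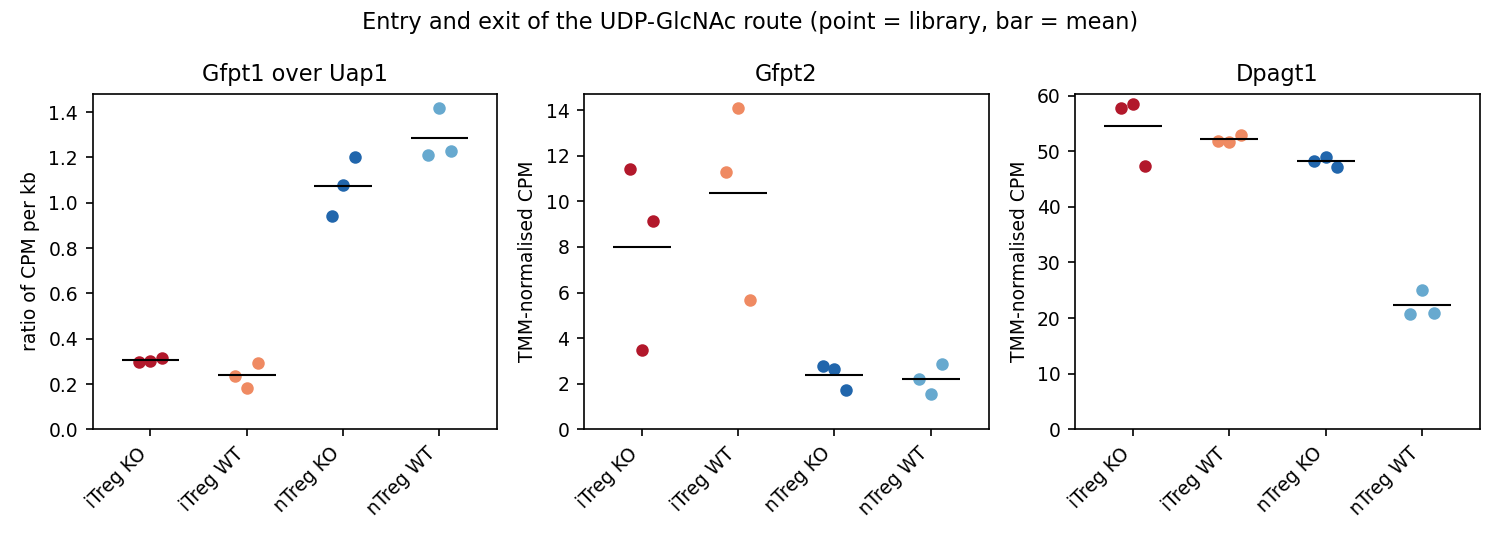
Entry and exit of the UDP-GlcNAc route by group, with points for libraries and bars for means (n = 3). The left panel gives the ratio of Gfpt1 to Uap1 in CPM per kilobase, at most 0.315 in the iTreg libraries and at least 0.942 in the nTreg libraries; the other panels give Gfpt2 and Dpagt1 in CPM, with Dpagt1 at 20.8 to 25.1 in nTreg WT.

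**Figure D5:**
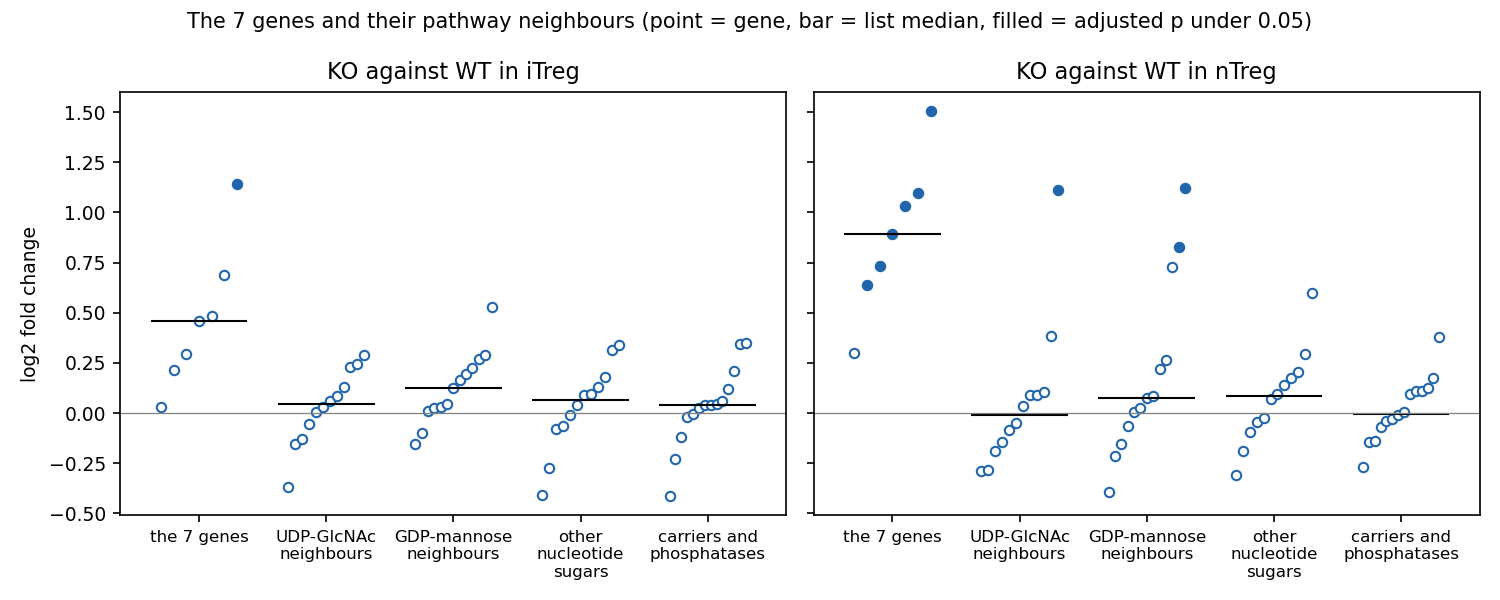
Log2 fold change of KO over WT for the 7 genes and for the 51 tested genes of the 4 neighbour lists, in iTreg (left) and nTreg (right), with a point per gene, filled where it passed the test, and a bar at each list's median. The 7 genes lie above 0 in both cell types, with medians of 0.46 and 0.89, while the neighbour lists have medians between −0.01 and 0.12.

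Between iTreg and nTreg, 18 of the 51 neighbours were called higher and 14 lower in KO, where 32.1% and 29.8% of all genes were, and 21 higher and 14 lower in WT, where 34.8% and 30.4% were. These shares are near those of all genes. Galk1, which phosphorylates galactose, was 2.94 higher on the log2 scale in KO iTreg than in KO nTreg and 3.30 higher in WT (adjusted p = 2.2e-05 and 9e-06). Uxs1, which makes UDP-xylose, was also higher (1.36 in KO and 1.14 in WT). Galt, the uridylyltransferase that follows Galk1, was lower (−1.07 and −1.09). Of the carriers, Slc35d2 (−1.35 and −1.73), Slc35b3 (−0.63 and −0.90) and the GDP-fucose carrier Slc35c1 (−1.04 and −0.69) were lower in iTreg, and the sulfate donor carrier Slc35b2 was higher (0.72 and 0.68). Around GDP-mannose, Mpi, which makes mannose-6-phosphate from fructose-6-phosphate, was higher in iTreg (0.68 in both labels), and Fpgt, a fucose salvage enzyme, was lower (−0.47 and −0.72). Around UDP-GlcNAc, Alg13, part of the transferase that adds the second GlcNAc to dolichol, was higher (1.33 and 1.02), and Gnpda2, a deaminase that works against Gfpt1, was lower (−0.44 and −0.81). Each of these passed the test in both labels.

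The genes whose pattern over the 12 libraries was closest to each of the 7 were found among 8673 genes, by the root mean square difference of centred log2 CPM. For Slc35b1 they were Calr (0.149), Dnajb11 (0.168) and Pdia3 (0.209), a lectin chaperone, a BiP co-chaperone and a disulfide isomerase of the ER. For Pgm3 they were Tmed9 (0.083), Ppib (0.094) and Rrbp1 (0.114), and for Gmppa they were Tmed3 (0.176), Nucb1 (0.211) and Mcfd2 (0.218). Gfpt1 was closest to Edem1 (0.169), Mtmr4 (0.182) and Glipr2 (0.193). For Gmppb the nearest were Nars (0.164), Aldh18a1 (0.174) and Sept11 (0.188), of which Nars charges asparagine tRNA and Aldh18a1 begins proline synthesis. Uap1 was nearest to Mthfd1l (0.211), Med9 (0.213) and Carhsp1 (0.215), and Gnpnat1 to Tmem126a (0.094), Mecr (0.109) and Exosc4 (0.117). These distances are on the log2 scale, over libraries that share the 4 groups, and can be set against the genes' own root mean square variation of 0.684 for Slc35b1, 0.713 for Uap1, 0.562 for Gfpt1, 0.561 for Gmppb, 0.475 for Gmppa, 0.321 for Pgm3 and 0.296 for Gnpnat1. No gene of the set was among the 3 nearest to another of the set, and the closest such pair was Pgm3, the tenth nearest to Gmppa (0.253).

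In GENCODE M21 (GRCm38, the mm10 build) the genes lie on 5 chromosomes and all are protein-coding. Gfpt1 is at chr6:87042846-87092197 (plus strand), Gnpnat1 at chr14:45376334-45404913 (minus), Pgm3 at chr9:86554377-86571842 (minus) and Uap1 at chr1:170141938-170174957 (minus). Gmppa is at chr1:75435930-75443179 (plus), Gmppb at chr9:108049242-108052801 (plus) and Slc35b1 at chr11:95384692-95391776 (plus). Merged exon lengths were between 2223 bases (Slc35b1) and 10072 bases (Gfpt1). Gnpnat1, Pgm3 and Gmppb share exonic bases with a gene on the other strand, and whether counting used the strand is not given in the sources used here. Gnpnat1 shares 3878 bases with Styx, Pgm3 1270 with Dop1a and Gmppb 937 with Rnf123. None of these partners was called between KO and WT: the log2 fold change in nTreg was 0.14 for Styx, −0.30 for Dop1a (Dopey1 in the files) and −0.16 for Rnf123. Between the cell types Rnf123 was lower in iTreg in both labels (−0.83 in KO and −1.06 in WT), where Gmppb was higher. Dop1a was also lower in iTreg in both (−0.40, adjusted p = 0.028 in KO and −0.75, adjusted p = 0.00061 in WT), where Pgm3 did not pass.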

How the data were processed

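RNA of iTreg and nTreg was sequenced on an Illumina NextSeq instrument, in 12 libraries of 4 groups named by the labels. The deposited values are the authors' raw counts, listed by gene symbol in a file for each library. The submitters' processing notes name cutadapt 1.13, STAR, HTSeq 0.6.1p1, DESeq2 and the build mm10, without the role of each. The strand setting and gene annotation of the counting are not given in the sources used here. Genes were kept at a minimum count of 10 and a total of 15 (filterByExpr of edgeR), which left 12038, then scaled by TMM in edgeR 4.0.16. A robust quasi-likelihood fit had 1 term per group (8 residual degrees of freedom) and Benjamini-Hochberg adjustment over all genes. Levels per kilobase used merged GENCODE M21 exons. Depth, from 6763458 to 15462894 counts per library, gave the 7 genes between 107 and 2869 counts each. The script was tested on simulated data.

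The 7 genes and all lists of neighbours and markers were chosen with earlier results of these data known. Neighbours are named from up to 4 genes of each list with the smallest adjusted p among those called in a comparison. Hspa5, the overlapping genes and single marker genes were chosen after their values were seen. Libraries with the same number correlated in their deviations from the group means between KO and WT (r between 0.307 and 0.629 in iTreg and between 0.438 and 0.572 in nTreg), so the numbers pair the labels within a cell type, as a pattern in the data. They did not pair iTreg with nTreg (r between −0.054 and 0.095). The iTreg libraries numbered 2 differ in Xist, with 2040 CPM under the WT label and 0 under the KO label. The 18 alternative fits used DESeq2's size factors, every gene without a filter, only genes at 5 CPM in 3 libraries, DESeq2 1.42.0, limma voom 3.58.1 with quality weights, a replicate block, or left out each of the 12 libraries in turn. For KO against WT and the difference of effects, the block was the library number within a cell type. For iTreg against nTreg it was the library number across both cell types, although the numbers did not pair these. Leaving out the 3 libraries with Xist, or both nTreg libraries numbered 2, was added after the data were seen. No protein sequences were used here. The result of 1 neighbour gene is not reported here.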

Additional observations from a re-analysis of the deposited data

Results flagged for a closer look

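Dpagt1 was the only gene of the 7 and their 51 tested neighbours whose KO effect differed between iTreg and nTreg by the edgeR test of the difference itself: the iTreg minus the nTreg effect was −1.05 on the log2 scale (SE 0.16, 95% confidence interval −1.39 to −0.71, adjusted p = 0.017). The 3 nTreg WT libraries had 20.8 to 25.1 CPM, against 47.2 to 58.5 CPM in the other 9. The call held in 12 of 18 alternative fits, with an estimate between −1.14 and −0.96, and in 6 of the 12 fits that leave out a library. Without the 3 libraries that carry Xist it was −1.03 (adjusted p = 0.473), and without both nTreg libraries numbered 2 it was −1.13 (adjusted p = 0.118).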

How the results depend on the processing

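With 3 libraries per group, counts near the threshold moved with single libraries while estimates moved less. In nTreg the genes called higher of 7 were 6 as reported and 4 with DESeq2's size factors (Pgm3 and Uap1 lost). They were 2 to 6 when 1 library was left out, and 1 without the 3 Xist libraries or without both nTreg libraries numbered 2. Over all genes the same settings called 263, 243, 155 to 343, and 70 and 100 genes higher. Slc35b1 and Gmppb kept their call there in 18 of 18 alternative fits, Gfpt1 and Gmppa in 13, and Pgm3 and Uap1 in 8. In iTreg the count of the 7 was 1 as reported, 2 with DESeq2 and 3 with the replicate block. It was 0 to 2 when 1 library was left out, and 0 in both added settings. Over all genes these settings called 20, 74, 81, 0 to 53, and 0 and 7 genes higher. For the difference of effects the count of the 7 was 0 lower as reported, 1 with voom (Gmppa) and 1 with the replicate block (Uap1). There 33, 91 and 176 of all genes were called lower. Higher in iTreg than nTreg in KO were 3 of the 7, 1 to 3 when 1 library was left out, and 1 without the Xist libraries. Over all genes these were 3865, 3422 to 4008, and 3188. Lower were 1 of the 7, 2 with DESeq2, voom or the replicate block, and 1 to 2 when 1 library was left out. Over all genes these were 3586, then 3705, 3933 and 3718, and 3186 to 3742. In WT the higher ones of the 7 were 2, 4 with voom, and 2 to 4 when 1 library was left out. Over all genes these were 4187, 4519, and 3794 to 4455. Estimates that changed sign were those of Uap1 and Gmppa in iTreg, −0.092 and −0.068 with voom and between −0.16 and 0.36 and between −0.079 and 0.38 when 1 library was left out, and of Pgm3 and Slc35b1 between the KO groups, between −0.31 and 0.058 and between −0.31 and 0.062 when 1 library was left out. For changes between settings not tied to fewer libraries, the cause was not tested. Apart from the calls named here and in the text, the replicate block changed no call of the 7 genes. The lowest count of any of the 7 genes was 107 in a library.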
